A study of Mus musculus with 463 samples.

Results

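At E10.5, in mid-gestation, the mouse foregut carries a dorsal and a ventral patch of epithelium that express the pancreatic homeobox factor Pdx1, and the results below describe the single cells with a low level of a Pdx1-GFP reporter in each of them. The cells were taken by their sort label, and the comparison was chosen with earlier results of these data known. There were 39 cells from the ventral and 40 cells from the dorsal Pdx1-expression region, together 79 of the 447 single cells in the count table. The study asked how the dorsal and ventral pancreatic programs differ, and profiled single cells by Smart-seq2, a full-length cDNA method, beside bulk libraries of sorted cells. For comparison, 39 ventral and 28 dorsal E10.5 cells sorted as Pdx1-GFP-high were used, and 2 ventral and 2 dorsal bulk libraries of E10.5 Pdx1+ cells. The labels name no deletion, drug or culture for any of these groups, and ventral Pdx1-low cells that were also sorted on the Liv2 antigen were not used.

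The labels number the cells of each group by set. Ventral sets 1 to 6 held 11, 4, 6, 1, 5 and 12 cells, and dorsal sets 1 to 6 held 6, 3, 4, 4, 5 and 18 cells. Counts were summed per set, and the ventral set of 1 cell was left out of the tests, which leaves 5 ventral and 6 dorsal sets. What a set stands for is not given in the labels. The p-values here weigh a difference between groups against the variation between sets, and part of that variation may be technical. Sequencing gave between 593954 and 1485143 reads on genes per ventral cell (median 1092348) and between 399296 and 1646662 per dorsal cell (median 1200823), and a median of 9409 genes detected per ventral cell against 9643.5 per dorsal cell.

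A first wave of endocrine cells, most of them producing glucagon, forms in the dorsal bud early in pancreatic development, through Neurog3 and then Neurod1, Isl1 and Pax6. The ventral region lies beside the liver bud and gives rise to the ventral pancreas and to the extrahepatic bile ducts and gallbladder, and the SRY-box factor Sox17 marks the cells of the biliary primordium there. Pdx1 is retained in pancreatic progenitors, is low in the earliest glucagon cells, and is lost where Sox17 directs a biliary fate.

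Both sides of the gate were first described by Gcg, which encodes glucagon, and Sox17. They were given in advance as markers of the dorsal and ventral cells, so their direction is no independent check. Gcg stood at 4.91, 4.18, 13.4, 62.9 and 78.6 CPM (reads of a gene per 1e6 reads on tested genes, scaled by edgeR's TMM factors for sets and unscaled over all genes for single cells) in ventral sets 1, 2, 3, 5 and 6, and at 39814, 24499, 48734, 46960.0, 54231 and 45908 CPM in dorsal sets 1 to 6. The groups did not overlap, and the lowest dorsal set lay far above the highest ventral one. Its log2 fold change, ventral over dorsal, was -10.36 (SE 1.36, adjusted p = 9.33e-06, edgeR quasi-likelihood test with Benjamini-Hochberg adjustment over 13387 genes, as for every adjusted p below). Sox17 showed the reverse, with 364.4, 486.0, 487.8, 408.4 and 356.2 CPM in the ventral sets against 0, 0.332, 0, 0, 0 and 0.132 CPM in the dorsal sets (log2 fold change 11.97, SE 1.14, adjusted p = 1.52e-07). Pdx1 itself overlapped between the sides: 25.6, 22.6, 23.4, 5.47 and 23.7 CPM in the ventral sets and 12.8, 8.97, 0, 50.9, 14.9 and 4.62 CPM in the dorsal sets (log2 fold change 0.42, SE 0.61, edgeR adjusted p = 0.68). In Pdx1-high sets it averaged 248.0 CPM ventrally and 221.8 CPM dorsally, so the low gate held less Pdx1 mRNA on either side.

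**Figure D1:**
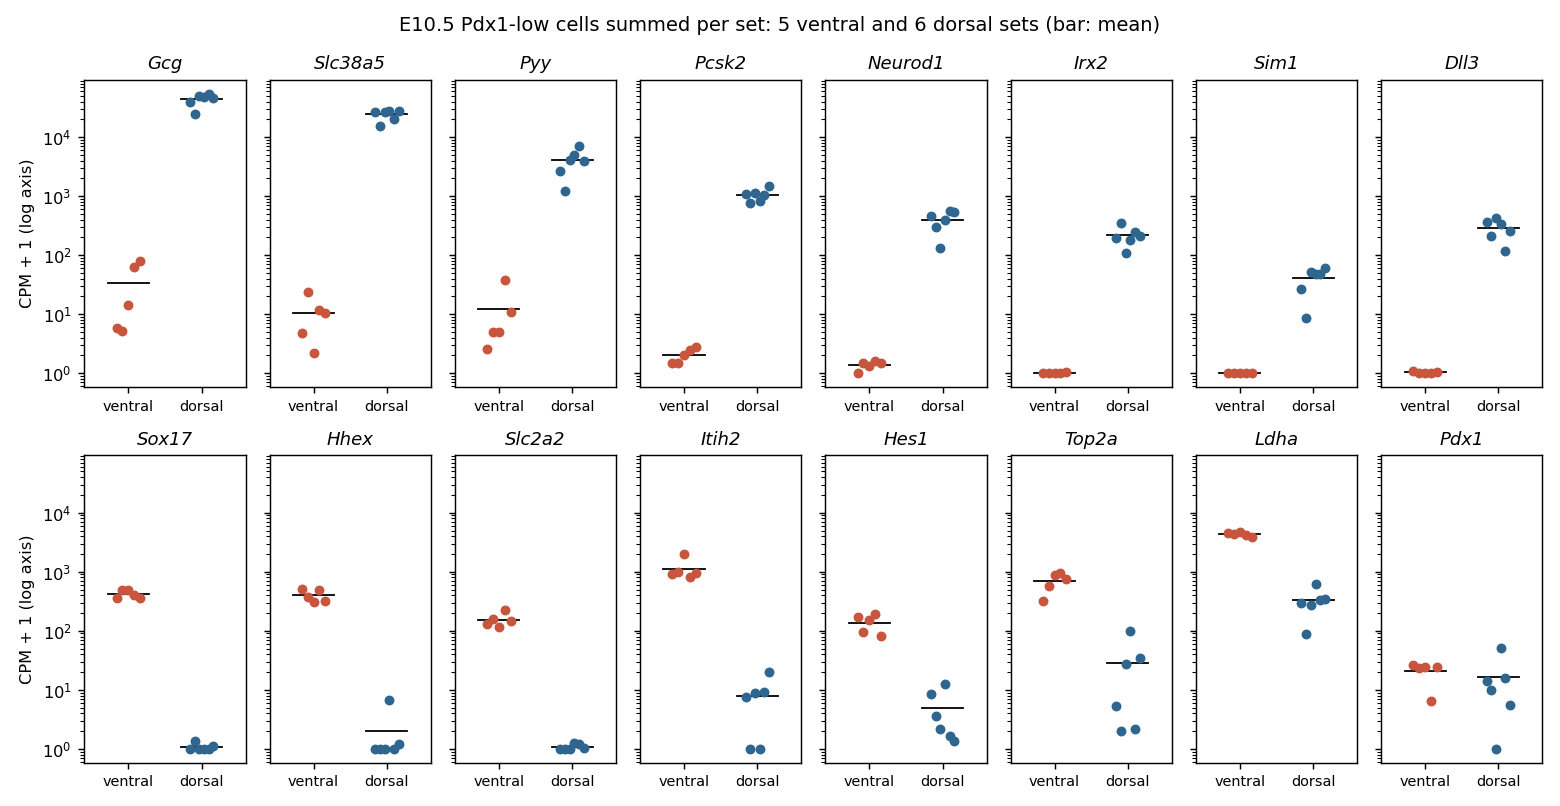
Summed counts per set of 16 genes in 5 ventral and 6 dorsal Pdx1-low sets, as CPM plus 1 on a log axis, with the mean as a bar. The upper 8 genes lie higher in the dorsal sets, among them Gcg at 24499 to 54231 CPM, and the lower row has 7 genes that lie higher in the ventral sets, among them Sox17 at 356.2 to 487.8 CPM, and Pdx1, where the groups overlap.

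In single cells Sox17 passed 10 CPM on the ventral side alone, and the highest ventral cell for Gcg lay below the lowest dorsal one. At 10 CPM or more, Sox17 was found in 26 of 39 ventral cells (66.7%, exact Clopper-Pearson 95% interval 49.8 to 80.9%) and in 0 of 40 dorsal cells, a count that leaves room for up to 7.5%. Gcg lay between 448.5 and 123347 CPM in all 40 dorsal cells, with a median of 39393 CPM. It passed 10 CPM in 21 of 39 ventral cells too, but at 384.3 CPM at most. These low ventral values followed the sets: all 17 cells of ventral sets 5 and 6 held 19.5 to 384.3 CPM, while sets 1 to 4 held between 0 and 43.9 CPM. Whether these reads came from the ventral cells themselves was not tested, so 21 of 39 counts cells with reads and not cells that express Gcg. Intervals and limits of this kind cover counting error only.

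Of the 13387 genes tested, 1778 (13.3%) were called higher and 1513 (11.3%) were called lower in ventral than in dorsal Pdx1-low sets at an adjusted p under 0.05. These shares are the background against which the gene lists below are read, and the median log2 fold change over all genes was -0.02. Genes named for the largest changes had to have sets without overlap, and list members were named by smallest p. A lack of overlap stated for such genes below describes them only, and its share over all genes is not given. Leaving out any 1 set gave between 2872 and 3321 calls in all, against 3291. Sets 1 to 3 alone gave 2032 calls and sets 4 to 6 alone, with 2 ventral sets, 526, and in none of these fits was a gene called in the opposite direction.

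Genes of glucagon cells were lower in ventral sets. Of 14 alpha cell genes, all tested, 12 fell in ventral sets, 1 rose and 1 did not pass, with a median log2 fold change of -6.34 (11 to 12 lower when any 1 set was left out, 6 in sets 4 to 6). The member that rose was Gria3, a subunit of glutamate receptors. The amino acid transporter gene Slc38a5 stood at 3.85, 22.4, 1.21, 10.9 and 9.63 CPM in the ventral sets and at 26135, 15679, 26682, 28028, 20377 and 27713 CPM in the dorsal sets. It passed 340 CPM in each of the 40 dorsal cells and peaked at 81.8 CPM in a ventral cell (log2 fold change -11.33, SE 0.79, edgeR adjusted p = 1.62e-09). Irx2, an Iroquois homeobox factor of alpha cells, averaged 0.0126 ± 0.0281 CPM in ventral and 216.4 ± 79.7 CPM in dorsal sets (SD, n = 5 and 6 sets, as for every mean below). Its ventral and dorsal sets did not overlap (edgeR adjusted p = 1.6e-11). Irx2 had 1 read in all ventral sets together, and no fold is given for it or for other genes with 1 to 3 reads on a side.

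The Gcg start region is shown because the lowest dorsal cell lay above the highest ventral cell for this gene. It spans chr2:62483604-62483903 on the minus strand of GRCm38.p6 (RefSeq, 250 bases before to 50 after the start), with the 2 matches to the E-box CAGATG, a sequence of the kind that Neurod1 and related factors bind, in capitals at 139 and 83 bases before the start.
Gcg: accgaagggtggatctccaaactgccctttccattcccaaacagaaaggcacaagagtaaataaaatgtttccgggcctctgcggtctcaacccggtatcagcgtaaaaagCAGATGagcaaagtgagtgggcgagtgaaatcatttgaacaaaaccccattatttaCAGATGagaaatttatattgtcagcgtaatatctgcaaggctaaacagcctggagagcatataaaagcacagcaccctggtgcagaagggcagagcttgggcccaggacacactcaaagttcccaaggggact
On either strand this sequence stood in 19.2% of the 27025 genes of the promoter table, in 13.4% of the tested genes that matched it, in 12.2% of those called higher in ventral sets and in 16.5% of those called lower. Among alpha cell genes 8 matched the table and 4 held it (Etv1, Gcg, Irx2 and Smarca1). Of the matched hormone and beta cell genes 5 of 12 held it (41.7%), and of the matched granule genes 1 of 14 (7.14%). The motif was chosen after the values were seen, and a match describes letters, not binding.

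Other hormones were present in the same dorsal cells. Of 13 tested islet hormone and beta cell genes, 10 fell in ventral sets, 1 rose and 2 (Ins2 and Pdx1) did not pass, with a median log2 fold change of -6.07 (7 to 10 lower with any 1 set left out, 5 in sets 4 to 6). Pyy, the gene of the gut and islet peptide YY, stood at 1.54, 3.94, 4.08, 36.3 and 9.69 CPM in the ventral sets and at 2694, 1211, 4015, 5007, 7165 and 3984 CPM in the dorsal sets, with no overlap (log2 fold change -8.52, SE 1.08, edgeR adjusted p = 6.68e-06). Ghrl, which encodes ghrelin, averaged 0.58 ± 0.754 and 1142 ± 751.6 CPM in ventral and dorsal sets (log2 fold change -10.92, edgeR adjusted p = 6.42e-08). Iapp, which encodes islet amyloid polypeptide, averaged 3.51 ± 4.38 and 1082 ± 533.1 CPM (log2 fold change -8.32, edgeR adjusted p = 1.01e-06). Cartpt, a neuropeptide gene, averaged 0.0492 ± 0.110 and 1022 ± 976.0 CPM (edgeR adjusted p = 4.03e-10). All 4 lay higher in every dorsal set than in any ventral set, which for Cartpt was part of the rule that named it.

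Insulin genes were less even. Ins1, named here after its values were seen, stood at 1.93, 5.42, 45.7, 0.203 and 0.378 CPM in the ventral sets and at 202.3, 758.8, 1304, 2664, 615.5 and 559.8 CPM in the dorsal sets, again without overlap (log2 fold change -6.57, SE 1.53, edgeR adjusted p = 0.00298). It is a near copy of Ins2, and reads of either may have been counted for the other.

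At 10 CPM or more, Pyy was found in 6 ventral and 40 dorsal cells, Iapp in 4 and 35, Ghrl in 0 and 29, and Ins1 in 7 and 27. The ventral values of Ins1 and Iapp followed the sets. All 6 cells of ventral set 3 held Ins1, at 20.8 to 57.4 CPM, and the 4 ventral cells with Iapp were in that set. Whether these reads came from the ventral cells themselves was not tested, so these ventral counts are of cells with reads. The gene of cholecystokinin, Cck, was found in 0 ventral and 38 dorsal cells, the pancreatic polypeptide gene Ppy in 0 and 18, and the somatostatin gene Sst in 1 and 6. A share of 0 of 39 cells allows up to 7.69%. Of these 8 hormone genes, counting Gcg, 39 of the 40 dorsal cells held 3 or more, 16 cells held 6, and 2 cells held all 8. Gcg was the highest of the 8 per kilobase of gene length in 37 of the 40 dorsal cells.

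**Figure D2:**
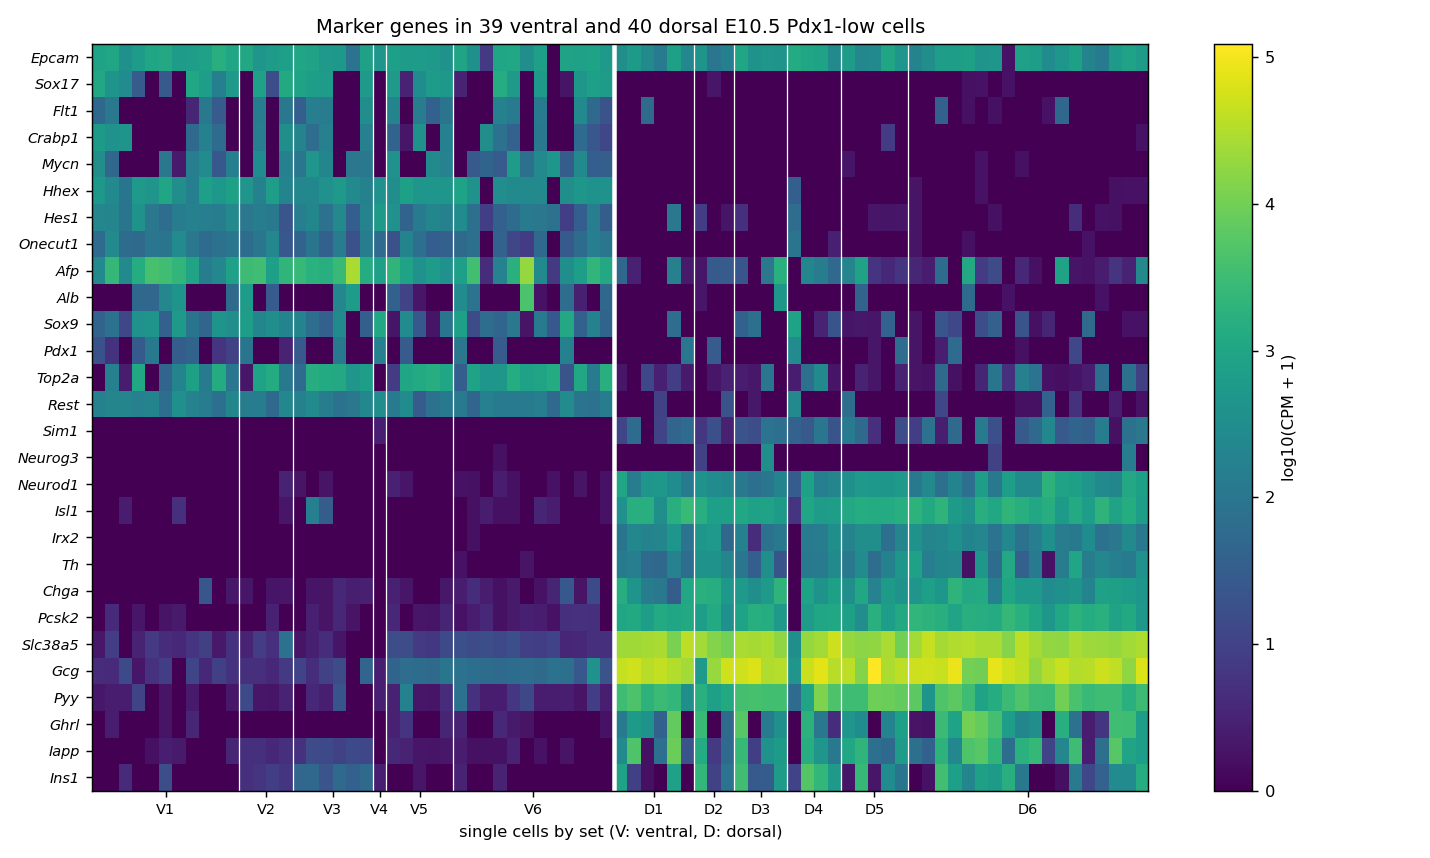
Each column is a single cell, ventral sets V1 to V6 on the left and dorsal sets D1 to D6 on the right, and each row a gene, with color for log10 of CPM plus 1. Slc38a5 and Gcg fill the dorsal columns (Gcg 448.5 to 123347 CPM), Sox17 is patchy among ventral cells (26 of 39 at 10 CPM or more), and Hhex marks 37 of 39 ventral cells and 1 of 40 dorsal cells.

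Of 18 tested transcription factors of the endocrine lineage, 12 fell in ventral sets, 5 did not pass, and Sox4, an SRY-box factor, rose. The list's median log2 fold change was -7.11, or -7.07 with genes at 0 reads set to their bound, and 6 were lower in sets 4 to 6. Neurod1 stood at 0, 0.492, 0.302, 0.608 and 0.503 CPM in the ventral sets and at 462.5, 302.0, 133.4, 397.7, 555.5 and 542.0 CPM in the dorsal sets (log2 fold change -10.05, SE 0.61, edgeR adjusted p = 1.56e-10). Isl1, a LIM homeobox factor, was at 32.3 CPM in ventral set 3 and at 0.692 CPM or less in the other ventral sets, against 730.3 to 1556 CPM dorsally (log2 fold change -7.41, edgeR adjusted p = 7.54e-05). Pax6, a paired box factor, averaged 0.571 ± 0.250 and 299.4 ± 119.5 CPM in ventral and dorsal sets (log2 fold change -8.87, edgeR adjusted p = 2.55e-07). None of these 3 overlapped between the sides.

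Fev, an ETS factor of endocrine precursors, and Myt1, a zinc finger factor, had no read in any ventral set and averaged 53.2 ± 23.0 and 42.2 ± 18.7 CPM in dorsal sets. Against a floor of 3 reads over the ventral sets, Fev was at least 743-fold lower and Myt1 at least 589-fold lower in ventral sets. Nkx2-2, a homeobox factor that progenitors share with endocrine cells, averaged 0.355 ± 0.712 and 35.1 ± 20.4 CPM (log2 fold change -6.81, edgeR adjusted p = 2.03e-05). Neurog3, the inducer of the lineage, was named after its values were seen and was sparse: 2 of 40 dorsal cells passed 10 CPM, at 345.3 and 136.0 CPM. These cells held 31018 and 17969 CPM of Gcg, below the dorsal median of 39393 CPM. Neurog3 averaged 0.0126 CPM in ventral and 16.8 ± 35.7 CPM in dorsal sets, which overlapped (edgeR adjusted p = 0.0089).

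Genes that pack and cleave peptide hormones were low in ventral sets. Of 17 granule and hormone processing genes, all tested, 16 fell in ventral sets and Slc18a1, a monoamine transporter gene, did not pass. Their median log2 fold change was -7.73, 15 to 16 were lower when any 1 set was left out, and 13 were lower in sets 4 to 6. Summed over the list, ventral sets held 85.4 to 109.1 CPM and dorsal sets 5553 to 9693 CPM. The prohormone convertase gene Pcsk2 stood at 0.482, 0.492, 1.06, 1.42 and 1.82 CPM in the ventral sets and at 1066, 768.7, 1146, 823.4, 1061 and 1495 CPM in the dorsal sets (log2 fold change -9.87, SE 0.63, edgeR adjusted p = 3.84e-10). Its relative Pcsk1 averaged 0.183 ± 0.256 and 255.7 ± 193.6 CPM in ventral and dorsal sets. The granins Chga and Chgb, acidic proteins of the granule core, averaged 1.82 ± 1.28 and 0.732 ± 0.512 CPM in ventral sets against 780.9 ± 252.9 and 677.4 ± 460.9 CPM in dorsal sets. The carboxypeptidase gene Cpe kept a low ventral level of 54.3 ± 12.4 CPM, against 2269 ± 519.9 CPM dorsally (log2 fold change -5.38, SE 0.26, edgeR adjusted p = 1.32e-11). Ptprn2, a membrane protein of the granule, averaged 0.0495 ± 0.0704 and 255.5 ± 80.7 CPM. No member of this group of 6 overlapped between ventral and dorsal sets.

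Promoters of some of these genes share the cAMP response element TGACGTCA, which reads the same on both strands. It is shown in capitals within 40 bases for the 3 of 14 matched granule genes that held it within the 300-base window, and for Cartpt, all from RefSeq on GRCm38.p6. Chgb lies at chr2:132781554-132781593 (plus strand, 72 bases before the start), Pcsk1 at chr13:75089763-75089802 (plus, 78), Scg2 at chr1:79440071-79440110 (minus, 68) and Cartpt at chr13:99900772-99900811 (minus, 112).
Chgb: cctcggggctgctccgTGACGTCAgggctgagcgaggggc
Pcsk1: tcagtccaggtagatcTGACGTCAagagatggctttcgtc
Scg2: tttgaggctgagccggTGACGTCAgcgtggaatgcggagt
Cartpt: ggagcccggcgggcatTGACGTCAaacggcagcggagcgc
The element stood in 2.03% of all promoters of the table, in 3.84% of tested genes, in 3.46% of those called higher and in 5.51% of those called lower in ventral sets. Of the matched alpha cell genes 2 of 8 held it (Peg3 and Sh3gl2), and of the matched hormone and beta cell genes 1 of 12 (Sst). It shares no bases with the E-box above, was also chosen after the values were seen, and says nothing here about which factor is bound.

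Exocytosis and electrical genes were also lower in ventral sets. Of 18 exocytosis genes 15 fell in ventral sets and 3 did not pass (median log2 fold change -4.32, 13 to 16 lower with any 1 set left out, 4 in sets 4 to 6). Syt13, a synaptotagmin, averaged 2.39 ± 4.48 and 439.9 ± 123.9 CPM in ventral and dorsal sets, and ventral set 6 held 10.4 CPM of it. Vamp2, a vesicle SNARE protein, was present on both sides, at 50.0 ± 14.4 and 280.4 ± 38.4 CPM (log2 fold change -2.49, SE 0.28, edgeR adjusted p = 1.17e-06). Of 14 tested membrane excitability genes 10 fell and 4 did not pass (median -5.31, 8 to 10 lower with any 1 set left out, 4 in sets 4 to 6). Abcc8, the sulfonylurea receptor, averaged 2.14 ± 3.84 and 747.9 ± 293.9 CPM (log2 fold change -8.21, edgeR adjusted p = 3.7e-07). Kcnj11, the channel pore that pairs with it, had no ventral read and 17.6 ± 6.6 CPM dorsally, at least 246-fold lower in ventral sets. The potassium channel gene Kcnk16 averaged 24.4 ± 7.08 and 741.5 ± 172.1 CPM (log2 fold change -4.92, edgeR adjusted p = 6.04e-08). Gnao1 and Gng4, subunits of heterotrimeric G proteins, averaged 0.0444 and 0.0554 CPM in ventral sets against 236.7 ± 87.8 and 241.5 ± 62.6 CPM in dorsal sets. None of these 7 genes overlapped between the sides.

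Of 5 tested neural and neural crest markers, 3 fell in ventral sets (Ret, Th and Tubb3) and 2 did not pass. Th, which encodes tyrosine hydroxylase, stood at 0 to 0.126 CPM in ventral sets against 93.3, 327.2, 131.0, 152.0, 249.8 and 311.6 CPM in dorsal sets, and passed 10 CPM in 0 of 39 ventral and 37 of 40 dorsal cells (edgeR adjusted p = 2.21e-05). The list's summed level was 1.73 to 25.6 CPM in ventral and 185.0 to 533.9 CPM in dorsal sets. The defining markers Dbh, of noradrenergic cells, and Foxd3, of the neural crest, had no read in any set of either side.

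Genes of the pancreatobiliary domain were mostly higher in ventral Pdx1-low sets. Of 17 tested biliary and pancreatobiliary genes, 11 rose, 5 did not pass and Krt7 fell, with a median log2 fold change of 2.1 (9 to 12 higher with any 1 set left out, 4 in sets 4 to 6). The homeobox factor Hhex, needed for the ventral pancreas and liver, stood at 508.5, 368.5, 310.4, 495.6 and 319.1 CPM in the ventral sets and at 0, 0, 0, 5.84, 0 and 0.220 CPM in the dorsal sets (log2 fold change 8.94, SE 0.90, edgeR adjusted p = 3.43e-07). At 10 CPM it was found in 37 of 39 ventral cells and 1 of 40 dorsal cells. Onecut1, a cut homeobox factor of progenitors and bile duct cells, averaged 79.2 ± 23.6 and 2.80 ± 6.80 CPM in ventral and dorsal sets (log2 fold change 4.92, edgeR adjusted p = 0.00113). Prom1, a membrane glycoprotein of ducts, averaged 178.5 ± 16.8 and 17.8 ± 12.8 CPM (log2 fold change 3.33, edgeR adjusted p = 5.24e-06). Krt7, a duct keratin, went the other way at 37.9 ± 28.8 and 511.4 ± 123.2 CPM (log2 fold change -3.76, edgeR adjusted p = 2.56e-05).

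Several genes had next to no dorsal reads. Slc2a2, the low-affinity glucose transporter of liver and beta cells, stood at 128.6, 160.5, 117.1, 220.4 and 143.4 CPM in the ventral sets and at 0.278 CPM or less in each dorsal set (edgeR adjusted p = 1.39e-08). Kitl, the ligand of the Kit receptor, averaged 121.0 ± 30.0 and 0.0147 ± 0.0359 CPM in ventral and dorsal sets, and Mycn, a growth factor-responsive transcription factor, 140.2 ± 33.0 and 0.0523 ± 0.0919 CPM. Both passed (edgeR adjusted p = 6.79e-06 and 8.43e-05). Tbx3, a T-box factor of the liver bud, averaged 74.0 ± 44.0 and 0.0376 ± 0.0921 CPM, with a low 6.89 CPM in ventral set 2. No dorsal set reached the lowest ventral set for any of these 4 genes.

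Another 5 genes had no dorsal read at all. Against the floor of 3 reads over the dorsal sets, Frk, a tyrosine kinase gene, was at least 1201-fold higher in ventral sets, Cyr61, a matrix-associated signalling protein, at least 826-fold, Wnt7b, a Wnt ligand, at least 671-fold, Gjb1, a gap junction protein of hepatocytes, at least 664-fold, and Apcs, a plasma pentraxin, at least 435-fold. Their ventral means were 82.8 ± 31.1, 56.9 ± 31.5, 46.2 ± 37.8, 45.7 ± 13.7 and 30.0 ± 18.2 CPM.

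Liver genes were mixed. Of 18 tested hepatoblast genes 6 rose, 2 fell and 10 did not pass (median log2 fold change 1.61, 5 to 7 higher with any 1 set left out, 2 in sets 4 to 6), and the summed level overlapped at 3128 to 12959 CPM in ventral and 5946 to 9802 CPM in dorsal sets. Afp, the fetal plasma protein gene, stood at 1556, 2258, 6951, 913.3 and 2222 CPM in the ventral sets and at 20.5, 18.6, 525.8, 128.1, 228.3 and 154.7 CPM in the dorsal sets (log2 fold change 3.95, SE 0.84, edgeR adjusted p = 0.00136). Itih2, a protease inhibitor chain of plasma, averaged 1125 ± 480.9 and 6.86 ± 6.89 CPM in ventral and dorsal sets (log2 fold change 7.25, edgeR adjusted p = 5.22e-05). Fgg, the fibrinogen gamma chain, averaged 73.9 ± 48.7 and 0.156 ± 0.242 CPM (log2 fold change 8.30, edgeR adjusted p = 6.33e-07). Rbp4, the plasma retinol carrier, was lower ventrally at 250.1 ± 224.5 and 3243 ± 1147 CPM (log2 fold change -3.69, edgeR adjusted p = 0.000118), and Ttr, which is also an alpha cell gene, fell too. Both are part of the summed level, which had a dorsal median of 7833 CPM. Its overlap therefore does not mean that the other liver genes were alike on both sides. Alb, the albumin gene, passed 10 CPM in 16 of 39 ventral and 3 of 40 dorsal cells.

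Pancreatic progenitor genes split, with 6 of 20 higher in ventral sets, 4 lower and 10 that did not pass (median log2 fold change -0.27, 4 to 7 higher with any 1 set left out, 1 higher and 1 lower in sets 4 to 6). Dlk1, a membrane protein of the Notch ligand family and an imprinted gene, averaged 885.7 ± 133.1 and 67.4 ± 42.3 CPM in ventral and dorsal sets (log2 fold change 3.72, edgeR adjusted p = 1.18e-07). Nkx6-1, a homeobox factor of progenitors and beta cells, averaged 0.277 ± 0.619 and 24.1 ± 8.71 CPM (log2 fold change -6.07, edgeR adjusted p = 0.000102). Sox9, the duct and progenitor factor, was chosen after its values were seen and overlapped: 218.8, 339.2, 100.1, 79.5 and 203.7 CPM in the ventral sets and 4.64, 0, 27.3, 162.6, 9.48 and 9.85 CPM in the dorsal sets. In dorsal set 4, 1 cell described below held 879.8 CPM, and the others held 20.4 CPM at most. Sox9 passed at an edgeR adjusted p of 0.0233 (log2 fold change 2.42, SE 0.76), and did not without ventral set 2 or when the Pdx1-low groups were fitted alone.

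**Figure D3:**
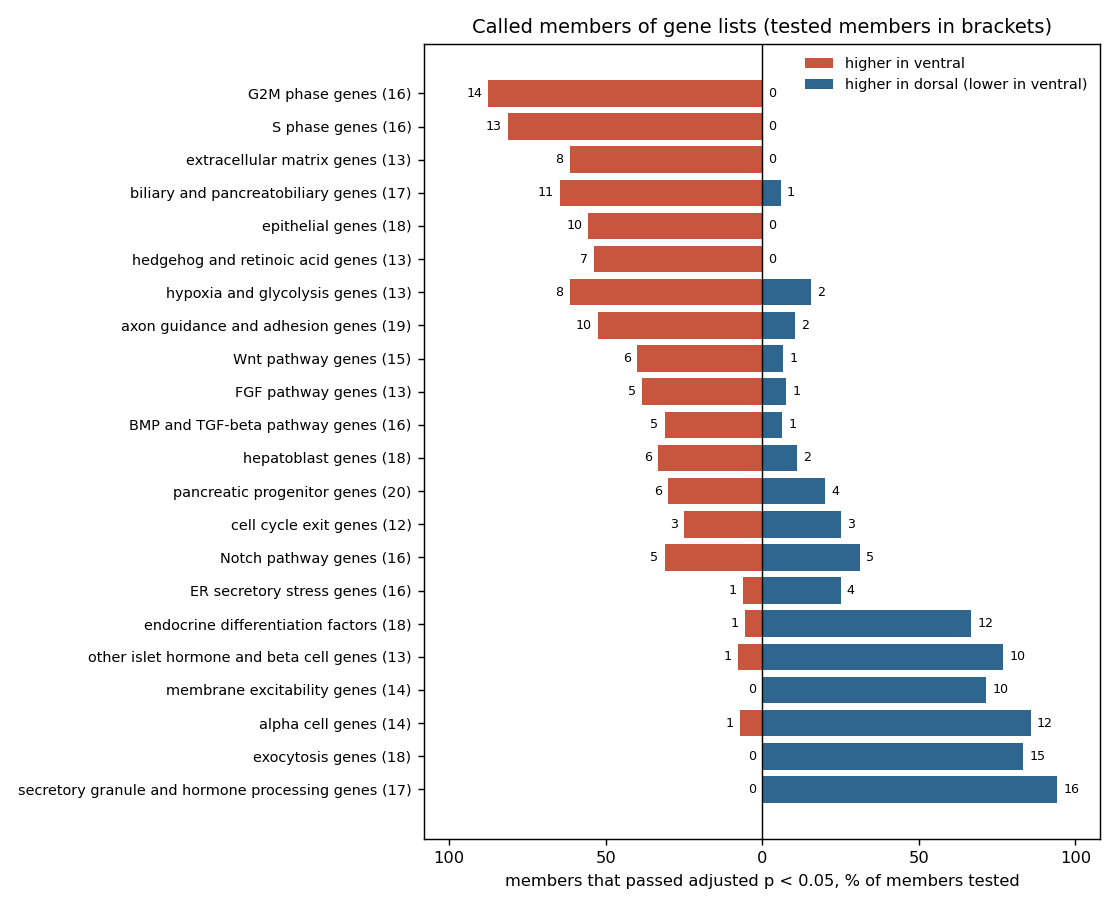
For 22 gene lists, the share of tested members called higher in ventral (left bars) or higher in dorsal (right bars) Pdx1-low sets at an adjusted p under 0.05, with counts beside the bars. G2M phase genes (14 of 16 higher in ventral) and secretory granule genes (16 of 17 higher in dorsal) mark the ends, against 13.3% and 11.3% of all genes tested.

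Cell cycle genes were higher in ventral sets. Of 16 S phase genes 13 rose and 3 did not pass (median log2 fold change 2.32), and of 16 G2M phase genes 14 rose and 2 did not pass (median 3.56). Summed, the S phase genes held 3581 to 4422 CPM in ventral and 525.9 to 2560 CPM in dorsal sets, and the G2M genes 2610 to 5786 CPM in ventral and 157.1 to 1627 CPM in dorsal sets, with dorsal set 4 the highest dorsal set in both. In sets 1 to 3 alone 15 members of each list were called higher. Sets 4 to 6 alone gave 1 G2M call, and 0 S phase calls by edgeR, where 10 and 6 members were higher at an unadjusted p under 0.05.

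Top2a, the topoisomerase of dividing cells, stood at 321.8, 579.0, 887.1, 947.8 and 749.1 CPM in the ventral sets and at 4.28, 0.997, 26.8, 97.3, 1.13 and 34.0 CPM in the dorsal sets (log2 fold change 4.67, SE 0.84, edgeR adjusted p = 0.000285). It passed 10 CPM in 33 of 39 ventral cells (84.6%, exact 95% interval 69.5 to 94.1%) and in 10 of 40 dorsal cells (25.0%, 12.7 to 41.2%). The mitotic kinase gene Aurkb averaged 166.7 ± 66.7 and 2.57 ± 4.22 CPM in ventral and dorsal sets, and Cdk1, the kinase that drives mitosis, 308.3 ± 112.8 and 17.9 ± 29.7 CPM. Mcm6, of the replicative helicase, averaged 491.6 ± 64.5 and 90.3 ± 56.8 CPM, and Pcna, the sliding clamp of DNA polymerase, 166.8 ± 28.7 and 35.1 ± 23.2 CPM. All 5 genes were above every dorsal set in every ventral set. Ccnd1, cyclin D1, averaged 288.8 ± 34.8 and 22.9 ± 44.5 CPM, of which dorsal set 4 held 113.1 CPM (log2 fold change 3.68, edgeR adjusted p = 0.00343).

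A list of 12 genes that set whether a cell enters or leaves the cycle held both kinds. Of these, 3 rose in ventral sets (Ccnd1, Myc and Mycn, which drive the cycle), 3 fell (Btg2, Cdkn1a and Cdkn2d, which slow it) and 6 did not pass, and sets 4 to 6 alone gave 1 higher and 1 lower. Cdkn1a, a cyclin-dependent kinase inhibitor, averaged 22.5 ± 27.4 and 329.5 ± 95.2 CPM in ventral and dorsal sets (log2 fold change -3.86, SE 1.11, edgeR adjusted p = 0.0138). Btg2, an antiproliferative gene, averaged 11.3 ± 5.44 and 248.4 ± 88.2 CPM (log2 fold change -4.45, edgeR adjusted p = 0.000209). Both were higher in every dorsal set.

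Glycolysis genes were also higher in ventral sets. Of 13 tested hypoxia and glycolysis genes 8 rose (8 to 9 with any 1 set left out, 5 in sets 4 to 6), 2 fell (0 to 2 with any 1 set left out) and 3 did not pass, with a median log2 fold change of 1.31. The lactate dehydrogenase gene Ldha varied little between ventral sets, at 4473, 4405, 4683, 4173 and 3946 CPM in the ventral sets and at 289.2, 88.7, 275.0, 628.6, 329.7 and 348.0 CPM in the dorsal sets (log2 fold change 3.73, SE 0.30, edgeR adjusted p = 1.46e-08). Eno1, the enolase of glycolysis, averaged 1612 ± 151.0 and 405.6 ± 106.6 CPM, and the glucose transporter gene Slc2a1 404.2 ± 60.0 and 127.1 ± 26.1 CPM. Neither overlapped between the sides, and their log2 fold changes were 1.99 and 1.67 (edgeR adjusted p = 1.96e-08 and 9.69e-05).

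Among signalling lists, Notch genes were called in both directions. Of 16 tested, 5 rose in ventral sets (the receptors Notch1, Notch2 and Notch3, the ligand Jag1 and the effector Hes1), 5 fell (the ligands Dll1, Dll3, Dll4 and Jag2, and the glycosyltransferase Mfng) and 6 did not pass. Leaving out any 1 set gave 5 to 6 higher and 3 to 7 lower, and sets 4 to 6 alone 1 higher and 0 lower by edgeR, where 5 and 4 members passed at an unadjusted p under 0.05. Hes1, a repressor of Neurog3, stood at 167.0, 93.3, 153.9, 189.6 and 79.4 CPM in the ventral sets and at 7.49, 2.66, 1.20, 11.7, 0.677 and 0.352 CPM in the dorsal sets (log2 fold change 5.15, SE 0.67, edgeR adjusted p = 8.19e-06). Notch2 averaged 120.4 CPM in ventral and 16.0 CPM in dorsal sets (ranges 92.9 to 142.3 and 2.14 to 46.4 CPM) (log2 fold change 2.92, edgeR adjusted p = 6.33e-05). Dll3 averaged 0.0319 ± 0.0452 and 285.5 ± 114.5 CPM, and Mfng 0.828 ± 1.13 and 146.8 ± 49.4 CPM (edgeR adjusted p = 9.13e-05 and 0.000145). None of these 4 overlapped between the sides.

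In the FGF, BMP and Wnt lists more members rose than fell, and in sets 4 to 6 each had 3 higher and 0 lower by edgeR (1, 1 and 0 lower at an unadjusted p under 0.05). Of 13 tested FGF genes 5 rose and 1 fell (0 to 1 lower with any 1 set left out). The receptor gene Fgfr2 averaged 181.8 ± 48.9 and 5.16 ± 6.25 CPM in ventral and dorsal sets, and Etv4, an ETS factor induced by FGF, 66.8 ± 21.4 and 2.02 ± 2.36 CPM. Of 16 tested BMP and TGF-beta genes 5 rose and 1 fell. The ligand gene Bmp7 averaged 84.0 ± 19.7 and 7.14 ± 3.68 CPM, and Id2, a target of BMP signals, 1194 ± 334.7 and 124.2 ± 144.7 CPM. Bmp4 passed (edgeR adjusted p = 0.0024) although its ventral sets varied between 0 and 64.0 CPM and touched the dorsal range of 0 to 0.226 CPM.

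Of 15 tested Wnt genes 6 rose and 1 fell (0 to 1 lower with any 1 set left out). The receptor gene Fzd7 averaged 91.3 ± 50.5 and 0.381 ± 0.934 CPM, and Sfrp1, a secreted Wnt inhibitor, 63.3 ± 48.3 and 1.08 ± 2.46 CPM, without overlap. In the hedgehog and retinoic acid list 7 of 13 rose (5 to 6 with any 1 set left out, 2 in sets 4 to 6) and 6 did not pass. Crabp1, which binds retinoic acid inside cells, averaged 104.2 ± 29.0 and 0.271 ± 0.641 CPM in ventral and dorsal sets (log2 fold change 8.67, edgeR adjusted p = 1.77e-06).

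Of 13 tested extracellular matrix genes 8 rose in ventral sets and 5 did not pass. Of 19 tested guidance and adhesion genes 10 rose, 2 fell (Ncam1 and Sema3e) and 7 did not pass. In sets 4 to 6 each list had 2 higher, and with any 1 set left out guidance genes had 1 to 2 lower. Vcan, the proteoglycan versican, averaged 161.8 ± 30.2 and 1.92 ± 2.80 CPM in ventral and dorsal sets, and the fibronectin gene Fn1 825.1 ± 134.3 and 180.1 ± 82.0 CPM. Reln, a secreted guidance protein, averaged 152.1 ± 40.1 and 5.11 ± 8.16 CPM (log2 fold change 4.86, SE 1.23, edgeR adjusted p = 0.00574), and the receptor genes Robo2 and Nrp1 averaged 103.4 ± 27.2 and 177.5 ± 71.4 CPM ventrally against 0.744 ± 1.71 and 9.86 ± 12.4 CPM dorsally. The nuclear receptor gene Nr2f2, from the gut and stomach list, averaged 205.7 ± 82.4 and 12.1 ± 8.91 CPM (log2 fold change 4.07, edgeR adjusted p = 0.000193).

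Of 18 epithelial genes, all tested, 10 rose in ventral sets and 8 did not pass (8 to 10 higher with any 1 set left out, 2 in sets 4 to 6). Summed over the list, ventral sets held 3350 to 4855 CPM and dorsal sets 1783 to 3176 CPM, without overlap. Epcam, an epithelial adhesion gene that did not pass, was at 10 CPM or more in 37 of 39 ventral and 39 of 40 dorsal cells. Cldn6 averaged 1074 ± 272.0 and 542.2 ± 101.7 CPM (log2 fold change 0.99, edgeR adjusted p = 0.000539), and Cldn3 31.2 ± 14.1 and 5.36 ± 4.65 CPM (2.52, edgeR adjusted p = 0.0012). Both are tight junction claudins. Grhl2, an epithelial grainyhead factor, averaged 35.1 ± 10.3 and 1.36 ± 3.02 CPM (4.76, edgeR adjusted p = 0.00188).

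Rest, a repressor of neuronal genes that was chosen after its values were seen, passed 10 CPM in 39 of 39 ventral and 5 of 40 dorsal cells. It stood at 166.6, 138.8, 167.5, 126.3 and 121.3 CPM in the ventral sets and at 1.78, 5.98, 0.240, 44.7, 15.6 and 3.26 CPM in the dorsal sets (log2 fold change 3.62, SE 0.66, edgeR adjusted p = 0.000349). Among 16 genes of the secretory stress response 4 fell in ventral sets, 1 rose and 11 did not pass. Leaving out any 1 set gave 1 to 5 lower, and sets 4 to 6 alone 0 by edgeR, where 4 were lower at an unadjusted p under 0.05. Manf, a secreted endoplasmic reticulum protein, averaged 102.8 ± 34.6 and 305.1 ± 87.9 CPM (log2 fold change -1.57, edgeR adjusted p = 0.00129).

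Ventral Pdx1-low cells were not uniform. Of the 39 cells, 21 held Sox17 and no Pdx1 at 10 CPM, 8 held Pdx1 and no Sox17, 5 held both and 5 neither. By set, Sox17 was found in 9 of 11, 3 of 4, 4 of 6, 0 of 1, 4 of 5 and 6 of 12 cells. These groupings come from the same cells and are given as a description, with no test.

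The 26 cells with Sox17 held a median of 574.3 CPM of it. Flt1, a receptor of vascular growth factors, passed 10 CPM in 20 of these 26 cells and in 0 of the other 13. Crabp1 was found in 21 of 26 and 1 of 13 cells, and Mycn in 22 of 26 and 6 of 13. The 13 cells with Sox17 under 10 CPM had more Sox9, with a median of 291.0 CPM against 72.1 CPM in the cells with Sox17, and Alb in 10 of 13 against 6 of 26 cells. Hhex was at 10 CPM or more in 26 of 26 and 11 of 13, Afp likewise in 26 of 26 and 11 of 13, and Rest in 26 of 26 and 13 of 13.

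Of the 5 cells with neither Sox17 nor Pdx1, 3 held Afp at 28326, 18970 and 3498 CPM, in sets 3, 6 and 6. The remaining 2, both in set 6, held 3.58 and 6.44 CPM of Afp, no Hhex, and 6.44 and 0 CPM of Epcam. Their mesenchyme markers summed to 19951 and 4202 CPM.

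**Figure D4:**
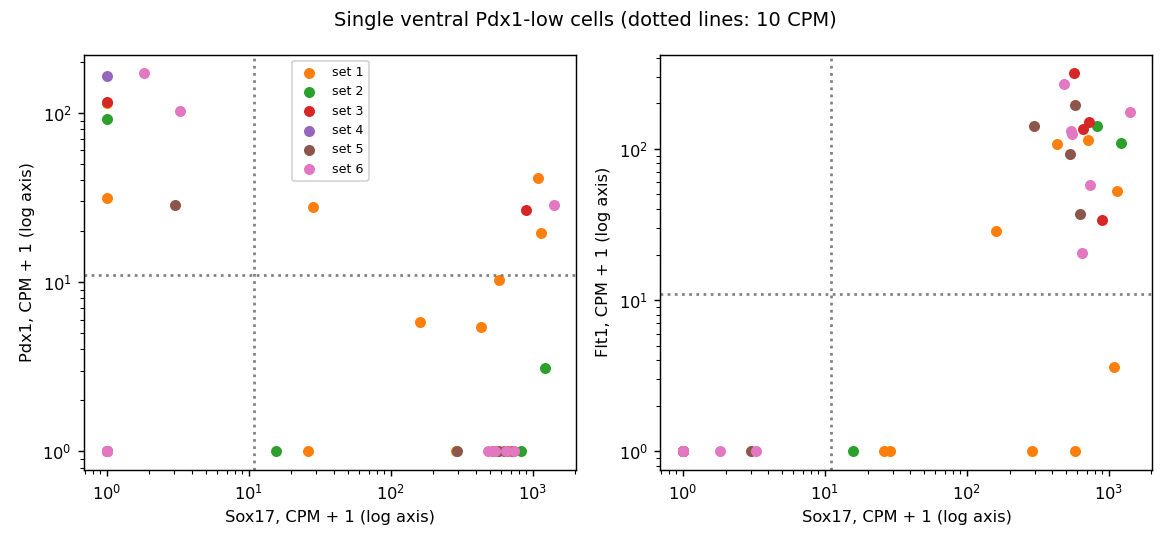
Single ventral Pdx1-low cells by Sox17 (x axis) against Pdx1 (left) and Flt1 (right), as CPM plus 1 on log axes, colored by set, with dotted lines at 10 CPM. The 20 cells above the line for Flt1 all lie to the right of the line for Sox17, and 5 of 39 cells lie above both lines in the left plot.

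Flt1 is also an endothelial gene. In sets it stood at 25.7, 59.1, 106.4, 92.1 and 62.2 CPM in ventral and at 14.6, 0, 0, 0, 0 and 5.76 CPM in dorsal Pdx1-low cells (log2 fold change 4.30, SE 1.26, edgeR adjusted p = 0.0177), and it did not pass by DESeq2. The 10 endothelial markers summed to 27.4 to 111.1 CPM in ventral and 0.332 to 21.2 CPM in dorsal sets. Of these markers, 3 had no ventral read (Cdh5, Emcn and Erg) and 5 no dorsal read (Emcn, Erg, Kdr, Sox18 and Tek). No other endothelial marker had enough reads to be tested.

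The 4 cells that stood apart were 2 from ventral set 6, named above, and 2 dorsal ones. Cell 1 of dorsal set 4 held the lowest dorsal Gcg (448.5 CPM), no Chga or Pcsk2, and 287.0 CPM of Pdx1, 879.8 CPM of Sox9 and 86.3 CPM of Ptf1a, the progenitor and acinar factor. This cell also held 252.5 CPM of Rest, and no other cell of dorsal set 4 had a read of Pdx1 or Rest. Cell 8 of dorsal set 6 held 53742 CPM of Gcg and 0.757 CPM of Epcam. Without these 4 cells 3482 genes were called, against 3291 with them.

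Mesenchyme markers without Isl1, 14 genes, summed to 93.9 to 2303 CPM in ventral and 77.2 to 249.6 CPM in dorsal sets, and ventral set 6 held 265.5 CPM without its 2 cells. Vim, an intermediate filament gene of that list, averaged 103.7 ± 61.3 and 6.61 ± 10.8 CPM, with ventral set 6 at 212.0 CPM and the other ventral sets at 64.1 to 87.6 CPM (log2 fold change 4.01, edgeR adjusted p = 0.00187), and it also passed without those cells. Of the 15 mesenchyme markers 1 had no ventral read (Nkx3-2) and 6 no dorsal read, Pdgfra and Foxf1 among them. Erythroid markers summed to 1.32 to 3.45 and 0 to 12.7 CPM in ventral and dorsal sets, immune markers to 0 to 4.60 and 0.332 to 42.6 CPM, and cardiac muscle markers to 15.6 to 38.4 and 11.7 to 114.3 CPM.

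To see where the contrast of the sides differed by gate, the ventral-dorsal difference of Pdx1-low sets was set against that of Pdx1-high sets in the same fit. In 737 genes (5.51% of 13387) the difference of these log2 fold changes was positive and in 667 genes (4.98%) negative. Endocrine lists were prominent among the negative differences: 15 of 17 granule genes, 10 of 14 alpha cell genes and 8 of 18 endocrine factors had a negative difference. For Gcg it was -10.41 (SE 1.54, edgeR adjusted p = 0.000164), with 38.3 CPM in ventral and 37.2 CPM in dorsal Pdx1-high sets. Nkx2-2 had a difference of -6.80, and the Pdx1-high sets held 34.7 and 34.8 CPM of it ventrally and dorsally.

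Another group of genes was present in 3 of the 4 sorted groups and low in dorsal Pdx1-low sets. Hes1 averaged 136.7 and 4.01 CPM in ventral and dorsal Pdx1-low sets and 156.6 and 138.5 CPM in ventral and dorsal Pdx1-high sets (difference 4.97, SE 0.87, edgeR adjusted p = 0.000793). Etv4, Fgfr2, Wnt7b and Top2a followed this pattern, at 66.8, 181.8, 46.2 and 697.0 CPM in ventral Pdx1-low sets, 2.02, 5.16, 0 and 27.4 CPM in dorsal Pdx1-low sets, 166.9, 100.1, 115.4 and 668.9 CPM in ventral Pdx1-high sets, and 172.3, 107.4, 63.8 and 425.0 CPM in dorsal Pdx1-high sets. Their differences of 4.99, 5.15, 10.47 and 4.01 passed. Of the cell cycle lists, 6 of 16 S phase and 4 of 16 G2M genes had a positive difference.

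Genes that were high in ventral Pdx1-low sets above all 3 other groups included Itih2, at 1125 and 6.86 CPM in ventral and dorsal Pdx1-low sets and 62.5 and 26.0 CPM in the Pdx1-high sets (difference 5.97, edgeR adjusted p = 0.00633). Nr2f2 was at 205.7 and 12.1 CPM against 31.0 and 33.8 CPM (difference 4.18, edgeR adjusted p = 0.00647). Sox17 and Kitl did not pass this test. Sox17 held 7.48 and 0.101 CPM in ventral and dorsal Pdx1-high sets (difference 5.71, SE 3.29, edgeR adjusted p = 0.306) and passed by DESeq2, and Kitl held 4.98 and 0 CPM there (edgeR adjusted p = 0.938). Hhex and Slc2a2 were higher in ventral sets at both gates by level, at 185.1 and 47.5 CPM and at 118.5 and 11.2 CPM in ventral and dorsal Pdx1-high sets, and by more in the low gate (differences 6.98 and 7.32, edgeR adjusted p = 0.000224 and 9.33e-05).

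**Figure D5:**
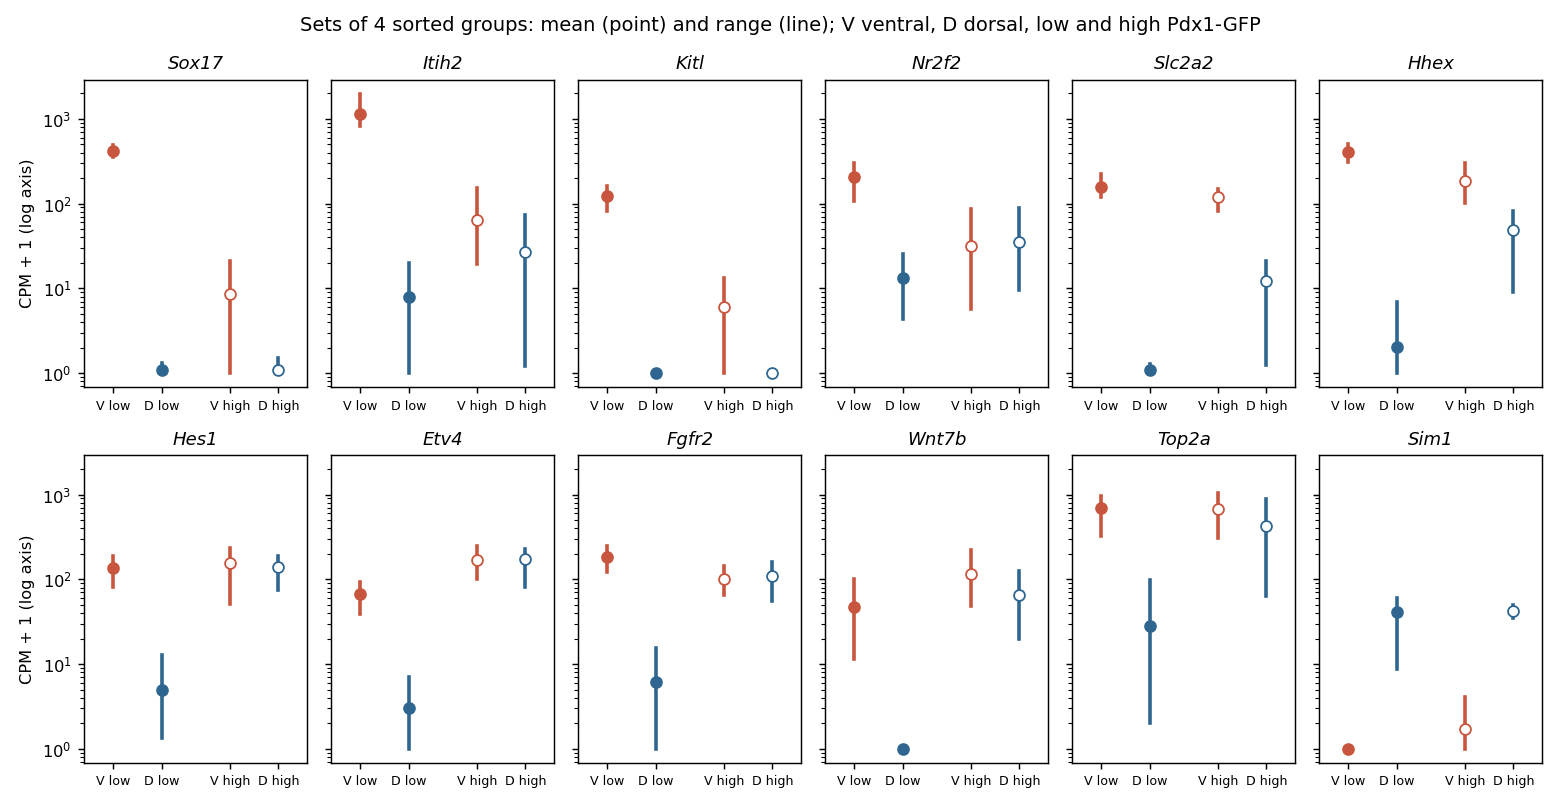
Mean (point) and range (line) over sets of 12 genes in ventral (V) and dorsal (D) Pdx1-low and Pdx1-high sets, as CPM plus 1 on a log axis. Hes1, Etv4, Fgfr2 and Top2a are low in dorsal Pdx1-low sets alone of the 4 groups, Itih2 is high in ventral Pdx1-low sets, and Sim1 is present in both dorsal groups (39.8 and 41.9 CPM).

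Sim1, a basic helix-loop-helix factor, had no read in any ventral Pdx1-low set and 25.9, 7.64, 51.0, 47.5, 47.2 and 59.6 CPM in the dorsal ones, at least 556-fold lower in ventral sets. In Pdx1-high sets it averaged 0.712 and 41.9 CPM ventrally and dorsally. It passed 10 CPM in 0 of 39 ventral and 29 of 40 dorsal Pdx1-low cells. The difference of the contrasts was -5.22 (SE 1.52, edgeR adjusted p = 0.034), but it did not pass without ventral set 1, 3 or 6, or with the set number as a block, and a fitted value with ventral sets at 0 reads is no bound. All 9 tested genes of the dorsal or ventral side list were called, 5 higher and 4 lower in ventral sets. That list was taken from earlier results on these samples and is no independent evidence of its direction.

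The bulk libraries were made from other sorted cells, labelled Pdx1+ with no split by GFP level, and held 8974729 and 11047808 reads on genes ventrally and 8779418 and 9468578 dorsally. With 2 libraries a side no permutation test can pass, so a gene was counted where both ventral libraries lay above both dorsal ones or the reverse, which held for 29.5% and 32.9% of 13349 genes with reads. Of 1776 genes called higher in ventral Pdx1-low sets and read in bulk, 1107 (62.3%) lay ventrally above and 141 (7.94%) dorsally above in bulk. Of 1511 called lower, 42 (2.78%) lay ventrally above and 1202 (79.5%) dorsally above. In bulk samples fewer cells of a type and less RNA per cell cannot be told apart.

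Gcg held 39.7 and 7.24 CPM in the ventral and 2594 and 2515 CPM in the dorsal bulk libraries, and Sox17 143.2 and 135.5 CPM against 0.342 and 0.106 CPM. Itih2 held 862.9 and 859.4 CPM in ventral against 16.3 and 16.8 CPM in dorsal bulk libraries. Hes1 stood in ventral and dorsal bulk libraries at 60.2 and 63.2 CPM against 66.8 and 66.6 CPM, and Etv4 at 98.9 and 112.8 CPM against 179.3 and 199.2 CPM. Both of these genes lay dorsally above in bulk.

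In GRCm38 (GENCODE gene annotation), Gcg lies at chr2:62474530-62483650 (minus strand), Slc38a5 at chrX:8271133-8280179 (plus), Pcsk2 at chr2:143546156-143816285 (plus), Sox17 at chr1:4490931-4497354 (minus), Hhex at chr19:37434810-37440731 (plus), Slc2a2 at chr3:28697903-28731359 (plus), Hes1 at chr16:30064384-30067796 (plus) and Pdx1 at chr5:147269959-147275848 (plus).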

How the data were processed

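The authors deposited whole-number counts per gene for each single cell and bulk library. The single-cell table holds 40824 genes and 92 spike-ins. TopHat2 2.1.0, Bowtie2, HTSeq 0.6.0 and the build GRCm38 (mm10) are named, per the submitters' processing notes, without a statement on strand, so overlapping antisense genes cannot be told apart. None of the columns had to be left unmapped, and the 79 Pdx1-low columns were all distinct.

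Counts were summed per set of the labels, spike-ins left out, for sets of at least 3 cells: 5 ventral and 6 dorsal Pdx1-low sets, and 5 ventral and 5 dorsal Pdx1-high sets. Set sums of Pdx1-low cells held 3927427 to 15293137 reads in ventral and 2944226 to 24191717 reads in dorsal sets. Spike-ins took 0.65 to 25.2% of reads in ventral and 1.28 to 12.9% in dorsal cells. The 4 groups entered 1 model in edgeR 4.0.16 (R 4.3.3) with its default filter on low counts, TMM scaling and the quasi-likelihood test, with Benjamini-Hochberg adjustment over 13387 genes and a threshold of 0.05. Set CPM use the reads on tested genes and the TMM factors. Cells were called positive for a gene at 10 CPM, with exact Clopper-Pearson intervals at 95%, and a floor is 3 reads.

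The cells, the 30 gene lists (452 genes) and the rule for named genes were chosen with earlier results of these data known. Named genes are Gcg, Sox17 and Pdx1, up to 12 genes per direction with the largest log2 fold change among called genes whose sets do not overlap and whose average log2 CPM is at least 3, up to 6 members per list with the smallest p, and up to 6 per direction for the difference of the gates. Ins1, Neurog3, Rest and Sox9 were added after their values were seen, as were cell-level counts, promoter motifs and the alternative without the 4 cells that stand apart.

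On simulated counts for the ventral-dorsal comparison (13387 genes, 100 changed at each fold) edgeR found 10 genes changed 2-fold and 49 changed 4-fold, with 2 false calls. Alternatives were DESeq2 1.42.0, other scaling, filters, thresholds, depth and choices of sets. Promoters are from RefSeq (GRCm38.p6), and 9810 of the tested genes matched that table. Some genes are not reported here.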

Additional observations from a re-analysis of the deposited data

Results flagged for a closer look

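Single sets stood apart from the rest of their group in 23 of 149 groups of 5 or 6 sets (Dixon's ratio above its 95% critical value, groups with a highest set of at least 1 CPM). Chance gives about 1 in 20 only for normally distributed values, which was not tested, and several of these groups lie near 0 CPM. The count is therefore not read as an excess over chance. Among genes with high ventral levels, ventral set 2 was low for Tbx3 (6.89 CPM, others 64.7 to 127.8) and high for Cldn3 (56.4 CPM, others 23.5 to 26.9), set 3 was high for Itih2 (1979.5 CPM, others 825.9 to 980.0), set 5 was low for Gjb1 (22.7 CPM, others 43.8 to 55.7) and for Pdx1 (5.47 CPM, others 22.6 to 25.6), and set 6 was high for Vim (212.0 CPM, others 64.1 to 87.6).

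Among genes with low ventral levels, set 2 was low for Manf (45.8 CPM, others 103.1 to 133.3), set 3 high for Isl1 (32.3 CPM, others up to 0.692), set 5 high for Nkx2-2 (1.62 CPM, others up to 0.151), and set 6 high for Syt13 (10.4 CPM), Abcc8 (9.0 CPM) and Nkx6-1 (1.38 CPM), where no other ventral set passed 0.811 CPM.

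Dorsal set 4, which holds the cell with Ptf1a, was high for Hhex (5.84 CPM, others up to 0.22), Onecut1 (16.7 CPM, others up to 0.132), Grhl2 (7.5 CPM, others up to 0.66) and Mcm6 (205.1 CPM, others 54.4 to 76.4). Dorsal set 2 was low for Cpe (1311.5 CPM, others 2282.8 to 2871.7) and Fn1 (32.9 CPM, others 141.5 to 261.1). Dorsal set 5 was low for Bmp7 (0.677 CPM, others 4.79 to 9.99) and high for Sfrp1 (6.09 CPM, others up to 0.357) and Crabp1 (1.58 CPM, others up to 0.044), and dorsal set 6 was high for Fzd7 (2.29 CPM, others at 0) and Robo2 (4.22 CPM, others up to 0.24).

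The ventral-dorsal contrast differed between the Pdx1-low and Pdx1-high gates, by the edgeR test of that difference, for 71 of the 88 genes followed in the text, with 34 negative and 37 positive differences. Apart from Gcg, Sox17 and Pdx1, these genes were named by p, fold or this difference in the same data, or after their values were seen. The count therefore describes them only. Over all 13387 genes tested, 4.98% had a negative and 5.51% a positive difference. Of the 32 genes whose difference was also followed through other settings, 24 passed. On the log2 scale, Pdx1-low minus Pdx1-high, the negative differences were -10.41 for Gcg, -9.04 for Slc38a5, -11.52 for Irx2, -10.37 for Neurod1, -8.20 for Isl1, -6.81 for Nkx2-2, -8.87 for Chga, -9.26 for Pcsk2, -4.26 for Cpe, -5.22 for Sim1 and -6.93 for Nkx6-1. Positive differences were 6.98 for Hhex, 7.32 for Slc2a2, 11.03 for Mycn, 11.91 for Frk, 10.47 for Wnt7b, 5.97 for Itih2, 4.97 for Hes1, 5.15 for Fgfr2, 4.99 for Etv4, 4.02 for Top2a, 3.23 for Ldha, 3.66 for Cldn3 and 4.18 for Nr2f2. The values of Irx2, Sim1, Slc2a2, Mycn, Frk and Wnt7b rest on 0 to 3 reads in a Pdx1-low group and are no bounds.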

How the results depend on the processing

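No gene was called in opposite directions by any of these fits. Of 3291 calls between ventral and dorsal Pdx1-low sets and 1404 calls for the difference of the gates, a test against a 1.5-fold change left 2092 and 876, sets 1 to 3 alone gave 2032 and 513, and sets 4 to 6 alone, with 2 ventral sets, 526 and 123. Leaving out any 1 set gave 2872 to 3321 and 1220 to 1658 calls. DESeq2 called 3848 and 1927 genes. Same-numbered ventral and dorsal sets had small positive correlations, 0.029 to 0.056 over 5 pairs, and 4 of 5 ventral sets correlated best with their own number. The median spike-in share per cell fell in the same order on both sides, from set 1 through sets 2, 5 and 3 to set 6. Whether same-numbered sets share a preparation was not tested, and the main fit left them unpaired. With the set number as a replicate block 3199 and 1315 genes were called.

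Of 88 genes followed in the text, 32 did not pass in sets 4 to 6 and 5 (Flt1, Reln, Cdkn1a, Afp and Id2) in sets 1 to 3, Flt1 did not by DESeq2, Reln and Neurog3 did not with sets of 5 or more cells, and Sox9 did not without ventral set 2. The share of ventral cells with Gcg was 94.9% at 1 CPM and 35.9% at 50 CPM, against 53.8% at 10 CPM. Whether the lower counts in sets 4 to 6 have a cause beyond fewer sets was not tested. In simulated data for the ventral-dorsal comparison, edgeR found 10 and DESeq2 24 of 100 genes changed 2-fold, so changes of that size can be missed. Far fewer genes were changed there than were called in the data, which makes the adjusted threshold stricter. The share missed in the data is therefore not known. DESeq2 made 25 false calls there against 2 by edgeR, and 25 against 4 for the difference of the gates. The counts were drawn once, from a spread that edgeR estimated. With that limit, a pass by DESeq2 alone is given less weight.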
